A study of Mus musculus with 5 samples.

Results

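The genes of the bone morphogenetic protein (BMP), TGF-beta and activin pathways were followed across hepatic progenitor cells (HPC), induced hepatic progenitor cells (iHPC) and neural progenitor cells (NPC) of the mouse. Members were the genes whose array name or current symbol starts with Bmp, Tgfb, Gdf or Smad and a digit, or with Bmpr, Tgfbr, Acvr or Inhb, together with Inha, Nog, Grem1, Fst and Id1 to Id4. The name rule left out Tgfbrap1. It found 59 genes among the 28770 named on the array, read by 93 probes, of which 24 genes had more than 1 probe. Of the 59 members, 48 were tested, which required that some group had all its arrays well above background for a probe of the gene, and 39 were well above background on all 5 arrays. The 11 members not tested were Acvr1c, Acvrl1, Bmp5, Bmp10, Bmp15, Gdf2, Gdf3, Gdf6, Gdf10, Inhbc and Mstn (named Gdf8 on the array). Of these, 8 were not well above background on any array and 3 on 1 array only.

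RNA of 5 cell lines was read on Agilent arrays with 1 colour. The HPC arrays hold 2 lines made from fetal liver at stage E13.5, HB1 from C57BL6J mice and HNG2 from the stock Tg(Nanog-GFP, Puro)1 Yam, so line and strain differ together. The NPC array is the line NSBAg2, derived from the embryonic stem cell line BAg73C2, which carries beta-geo, a resistance and reporter cassette, knocked into Afp. Both iHPC arrays come from NSBAg2 infected with pMXs retroviruses, which carried no drug marker of their own, for 9 (iHPC 9F) or 10 (iHPC 10F) transcription factors that the labels do not name. G418 was added 3 weeks after infection for 1 week, so that iHPC, unlike the NPC array, were selected for Afp transcription, and the cassette in Afp is shared by iHPC and NPC and not by HPC. The labels do not call the arrays of a group repeat cultures, so a p-value here rests on how far HB1 lies from HNG2 and 9F from 10F.

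BMPs, growth differentiation factors (GDFs), TGF-betas and activins are secreted dimers that bring together type I and type II receptor kinases at the cell surface. BMPs and some GDFs pass the signal mainly to Smad1, Smad5 and Smad9, TGF-betas and activins mainly to Smad2 and Smad3, and both branches share Smad4. Smad6 and Smad7 inhibit the receptors, noggin and gremlin trap BMPs, follistatin traps activins, and the Id genes are classic transcriptional targets of BMP signalling. In the embryo, BMPs from the septum transversum help to induce the liver from foregut endoderm, and TGF-beta and activin bias liver progenitors toward the bile duct fate.

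The bases just upstream of 6 members are shown because these genes were among those called between the cell types, with the related pair Bmp8a and Bmp8b first. Each run is the 250 bases before the gene's start from RefSeq, assembly GRCm38.p6, written along the gene's strand. They lie at chr4:123343253-123343502 (minus strand) for Bmp8a, chr4:123104911-123105160 (plus strand) for Bmp8b, chr1:186705990-186706239 (minus strand) for Tgfb2, chr12:25096093-25096342 (minus strand) for Id2, chr4:136143572-136143821 (plus strand) for Id3 and chr13:48260866-48261115 (plus strand) for Id4. Capitals mark the matches of 3 motifs, searched on both strands. The first is GGCGCC, known from BMP-responsive elements. The next is CAGAC, known as the Smad-binding element's core. The last is TATAAA, known as the core promoter's TATA box.
Bmp8a: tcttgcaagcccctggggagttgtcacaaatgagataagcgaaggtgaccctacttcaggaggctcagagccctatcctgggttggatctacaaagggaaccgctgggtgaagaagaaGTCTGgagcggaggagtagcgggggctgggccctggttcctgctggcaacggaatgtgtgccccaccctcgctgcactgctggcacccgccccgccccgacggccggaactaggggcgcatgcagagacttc
Bmp8b: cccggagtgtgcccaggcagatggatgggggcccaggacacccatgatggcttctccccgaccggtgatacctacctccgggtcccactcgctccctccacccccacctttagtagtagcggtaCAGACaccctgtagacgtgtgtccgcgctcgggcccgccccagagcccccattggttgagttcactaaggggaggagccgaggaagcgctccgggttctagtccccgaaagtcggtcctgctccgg
Tgfb2: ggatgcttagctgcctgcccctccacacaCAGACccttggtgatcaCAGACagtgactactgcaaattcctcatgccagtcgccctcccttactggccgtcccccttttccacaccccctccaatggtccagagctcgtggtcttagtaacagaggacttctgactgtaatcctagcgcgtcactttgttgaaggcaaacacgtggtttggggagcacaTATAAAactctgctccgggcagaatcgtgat
Id2: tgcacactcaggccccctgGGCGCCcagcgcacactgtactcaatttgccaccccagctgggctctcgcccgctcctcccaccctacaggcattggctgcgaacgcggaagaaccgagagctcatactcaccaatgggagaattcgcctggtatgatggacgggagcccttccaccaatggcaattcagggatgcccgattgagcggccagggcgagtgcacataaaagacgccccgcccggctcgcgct
Id3: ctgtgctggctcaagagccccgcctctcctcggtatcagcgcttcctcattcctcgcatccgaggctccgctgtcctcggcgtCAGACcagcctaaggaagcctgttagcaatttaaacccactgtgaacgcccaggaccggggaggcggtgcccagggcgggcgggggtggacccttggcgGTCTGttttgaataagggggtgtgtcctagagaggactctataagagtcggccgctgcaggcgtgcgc
Id4: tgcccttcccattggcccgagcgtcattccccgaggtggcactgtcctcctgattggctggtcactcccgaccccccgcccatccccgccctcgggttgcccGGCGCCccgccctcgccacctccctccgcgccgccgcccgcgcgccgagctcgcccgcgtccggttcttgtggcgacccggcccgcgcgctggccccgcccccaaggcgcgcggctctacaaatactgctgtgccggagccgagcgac
GGCGCC stood in Id2 and Id4 and in 9.59% of the 32851 promoter windows cut to the same 250 bases. CAGAC, which reads GTCTG on the opposite strand, stood at a single place in Bmp8a and in Bmp8b and at 2 places in each of Id3 and Tgfb2, against 42.2% of all windows. TATAAA stood in Tgfb2, from position -31 counted back from the start, and in 12.4% of all windows. The windows of Bmp8a and Bmp8b were identical at 49.6% of bases when aligned. These matches are letters only and were not tied to any measurement here. A promoter entry was found for 41 of the 59 members.

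The share of spots well above background, controls left out, ran from 58.9% to 65.6% by array, with no saturated spot. A level is given as log2 of the signal over that array's 75th percentile, so a level of 0 equals that percentile. The hepatic markers Afp, Alb, Ttr, Hnf4a, Foxa2, Krt8, Krt18, Krt19, Dlk1 and Apoa1 were all well above background on each HPC and iHPC array, and 3 of the 10 on NPC. Foxa2 was lowest in iHPC, at 0.07 on 9F and -0.36 on 10F, against 2.98 on NPC, 4.91 on HB1 and 4.56 on HNG2. Of 10 neural progenitor markers 7 were above background on NPC and 5 or 6 on the other arrays, and Olig2, Gfap and Dcx were not on any. Their summed signal was 5.17 on NPC, 7.10 on 9F and 7.97 on 10F. Nes made up most of it on iHPC, while Sox2 and Pax6 were highest on NPC. Of 10 mesenchymal markers 9 were above background on NPC, 7 on HNG2, 6 on each iHPC array and 3 on HB1. The mesenchymal markers' summed signal, in units of the array's 75th percentile, was 206 on NPC and 14.0 to 18.8 on the other 4 arrays. Acta2, at a level of 3.42 to 4.05 on those 4 arrays, made up most of the sum there. At most 2 of 5 endothelial and 3 of 6 blood markers were above background on any array, and the blood marker Ptprc was so on the iHPC arrays only. In bulk samples such as these, fewer cells of a type and less RNA per cell cannot be told apart. Differences were tested with limma in 1 fit of all 5 arrays, and a gene is called where its p, adjusted by Benjamini-Hochberg over all 19303 genes tested, is under 0.05.

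Between iHPC and the NPC line they came from, 4 of the 48 tested members were called (8.33%), against 5.64% of all genes tested. Bmp8a and Bmp8b rose, where 2.79% of all genes did, and Tgfb2 and Bmpr1b fell, where 2.85% did. Bmp8b and Bmpr1b entered the test only through the group where they are high, so their calls are not independent of that filter. Between iHPC and HPC 4 members were called (8.33%, against 5.42%), with Bmp8b and Id4 higher in iHPC (3.54% of all genes) and Gdf15 and Bmp2k lower (1.88%). Between HPC and NPC 11 were called (22.9%, against 15.7%). Bmp8a, Gdf15, Id2 and Bmp2k were higher in HPC, as were 6.68% of all genes, and Tgfb2, Tgfb3, Gdf1, Id3, Bmpr1b, Bmpr2 and Smad5 were lower, as were 8.98%. In each comparison the share was not far above that of all genes, so these counts say little about the members as a set. The 3 comparisons share arrays, and their values are therefore given side by side.

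Over all genes, 683 were called higher in iHPC than in HPC and 363 lower, which became 687 and 623 with median centring of the arrays. For HPC against NPC 1290 genes were higher and 1734 lower, or 1761 and 1496 with median centring, which also turned the 4 members higher and 7 lower into 6 and 5. Among the 39 members measured on all arrays, the median log2 difference was -0.23 for iHPC minus NPC, 0.18 for iHPC minus HPC and -0.37 for HPC minus NPC, where the same medians over 15051 genes were 0.07, 0.03 and 0.03. The median size of the difference, without its sign, was 0.93, 0.97 and 1.30 for the members and 0.46, 0.45 and 0.67 for those genes. Every call in the 3 comparisons was lost when either iHPC array was left out or when 9F and 10F were treated as separate groups. The SD of a gene, as the median over all genes tested, was 0.105 for the iHPC pair and 0.374 for the HPC pair. Leaving out HB1 or HNG2 left 1 HPC array and the iHPC pair alone as the measure of spread. More members were then called in each comparison, and so was a larger share of all genes. Without the filter on dim probes, which raised the number of genes to 28770, the calls of Bmp8b, Bmpr1b and Tgfb2 against NPC, of Bmp2k and Id4 between iHPC and HPC, and of Bmpr2, Smad5 and Tgfb3 between HPC and NPC were lost. A fit of only HPC and NPC ended all calls between them. HPC were scanned on other days than iHPC and NPC, so scan day and cell type cannot be told apart wherever HPC are compared.

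**Figure D1:**
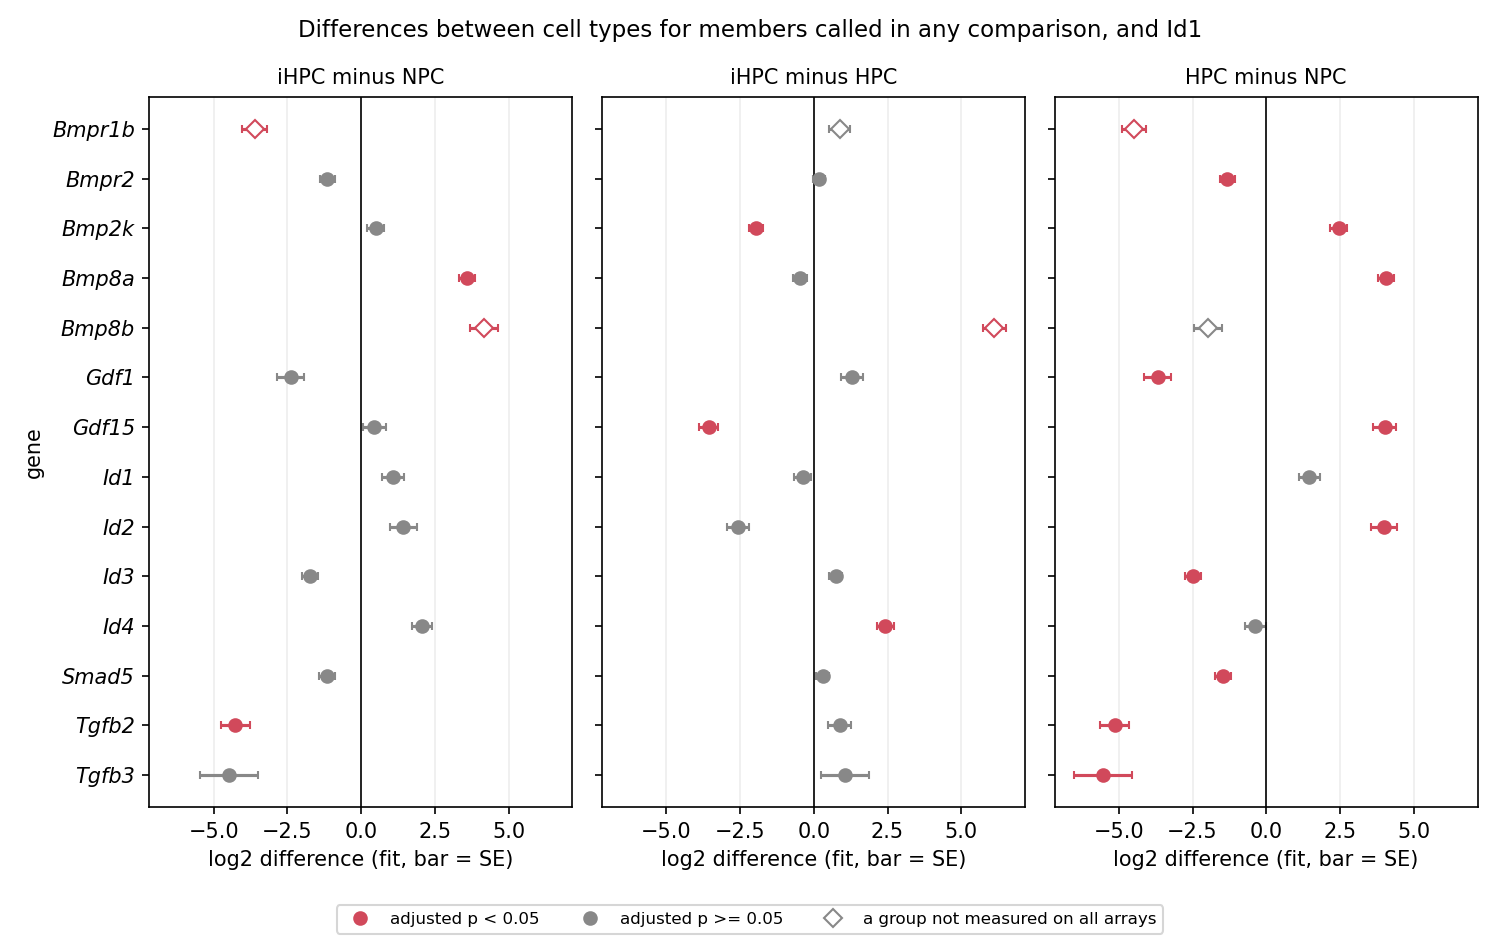
Log2 differences between cell types for the 13 members called in any comparison and Id1, as fitted, with bars of 1 SE; the x axis is log2 and a positive value is higher in the first group named. Red points passed an adjusted p of 0.05, and open diamonds are genes with a group not measured on all its arrays, whose size is only a bound in the text. Bmp8b lies furthest right between iHPC and HPC, and Tgfb3 furthest left between HPC and NPC.

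Of the 7 tested BMP ligands, Bmp8b was called in iHPC against both other cell types. Bmp8b, a BMP known from germ cells and brown fat, read -1.78 on 9F and -2.57 on 10F, and was not well above background on HB1, HNG2 or NPC. A gene that stays under this limit on all arrays of a group has no measured size there, and its fold is a bound, written "at least". The bound sets the mean of the brighter group against a floor for the dimmer, which on each array is the dimmest reading still well above background, or the probe's own reading if that is higher. By that bound Bmp8b was at least 10.7-fold higher in iHPC than in NPC and at least 17.6-fold higher than in HPC. Its limma adjusted p (0.0378 against NPC and 0.0205 against HPC) comes from the readings under the limit, not from the bound. Bmp8b also entered the test only through iHPC, the group where it is high. The call against NPC was lost with normexp background correction (limma adjusted p = 0.0976). With normexp, run with an offset of 50, the fitted log2 difference for iHPC minus NPC was 1.41 for Bmp8b. It was 1.56 for Bmp6, 2.69 for Fst and -0.73 for Bmpr1b. Each is smaller in size than the bound given for that gene, so the bounds hold for the deposited background correction only. Bmp8a, the paralog of Bmp8b, lies near it on chromosome 4, and its probe showed another pattern. Bmp8a read -0.97 on HB1, -0.95 on HNG2, -1.25 on 9F, -1.62 on 10F and -5.02 on NPC. The HPC and iHPC arrays were thus close to each other, and NPC lay far below them. Bmp8a was 12-fold higher in iHPC than in NPC (log2 3.59, SE 0.28, limma adjusted p = 0.0287) and 16.7-fold higher in HPC than in NPC (4.06, SE 0.28, adjusted p = 0.0126), and between iHPC and HPC it did not pass (-0.47, SE 0.23, adjusted p = 0.281). Its NPC reading lay near the dimmest one still well above background on that array (-5.59), so these folds are uncertain. With normexp, iHPC minus NPC was 1.82 and was still called (limma adjusted p = 0.0276). Their probes lie at chr4:122757422-122757481 for Bmp8a and chr4:122569912-122569968 for Bmp8b in mm7, the build of the array's annotation, and whether either also binds the other's transcript was not tested. On the slide that 10F and NPC share, 10F was above NPC by 3.40 on the log2 scale for Bmp8a.

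Other BMP genes did not pass, although some stood far apart. Bmp6, the BMP through which liver endothelium controls hepcidin and iron uptake, read -2.19 on 9F, -2.14 on 10F, -3.71 on HB1 and -5.43 on HNG2, and was not well above background on NPC. Both iHPC arrays lay above both HPC arrays, and the bound against NPC was at least 10.8-fold (limma adjusted p = 0.067 against NPC and 0.133 against HPC). Bmp6 passed against NPC with quantile normalization, median centring or normexp, and against HPC with normexp. A second Bmp6 probe was above background on the iHPC arrays only. Bmp7, an epithelial BMP of kidney and other organs, was high in HPC, at 0.86 on HB1 and -1.70 on HNG2, against -3.94 on 9F, -3.77 on 10F and -4.84 on NPC. The HPC arrays did not overlap with the rest, but HNG2 lay well below HB1, and neither HPC against NPC (4.42, SE 1.18, limma adjusted p = 0.0894) nor iHPC against HPC (-3.43, SE 0.97, adjusted p = 0.136) passed. Bmp4, the septum transversum BMP of liver induction, read -1.55 and -0.57 on HB1 and HNG2, -0.23 and 0.04 on 9F and 10F, and 1.17 on NPC. These readings climbed from HPC through iHPC to NPC without overlap, and HPC against NPC came to -2.23 (SE 0.51, limma adjusted p = 0.0692). Bmp2 and Bmp3 were measured on all arrays and did not pass in any comparison, and Bmp3 read -2.59 on 9F and -4.10 on 10F.

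**Figure D2:**
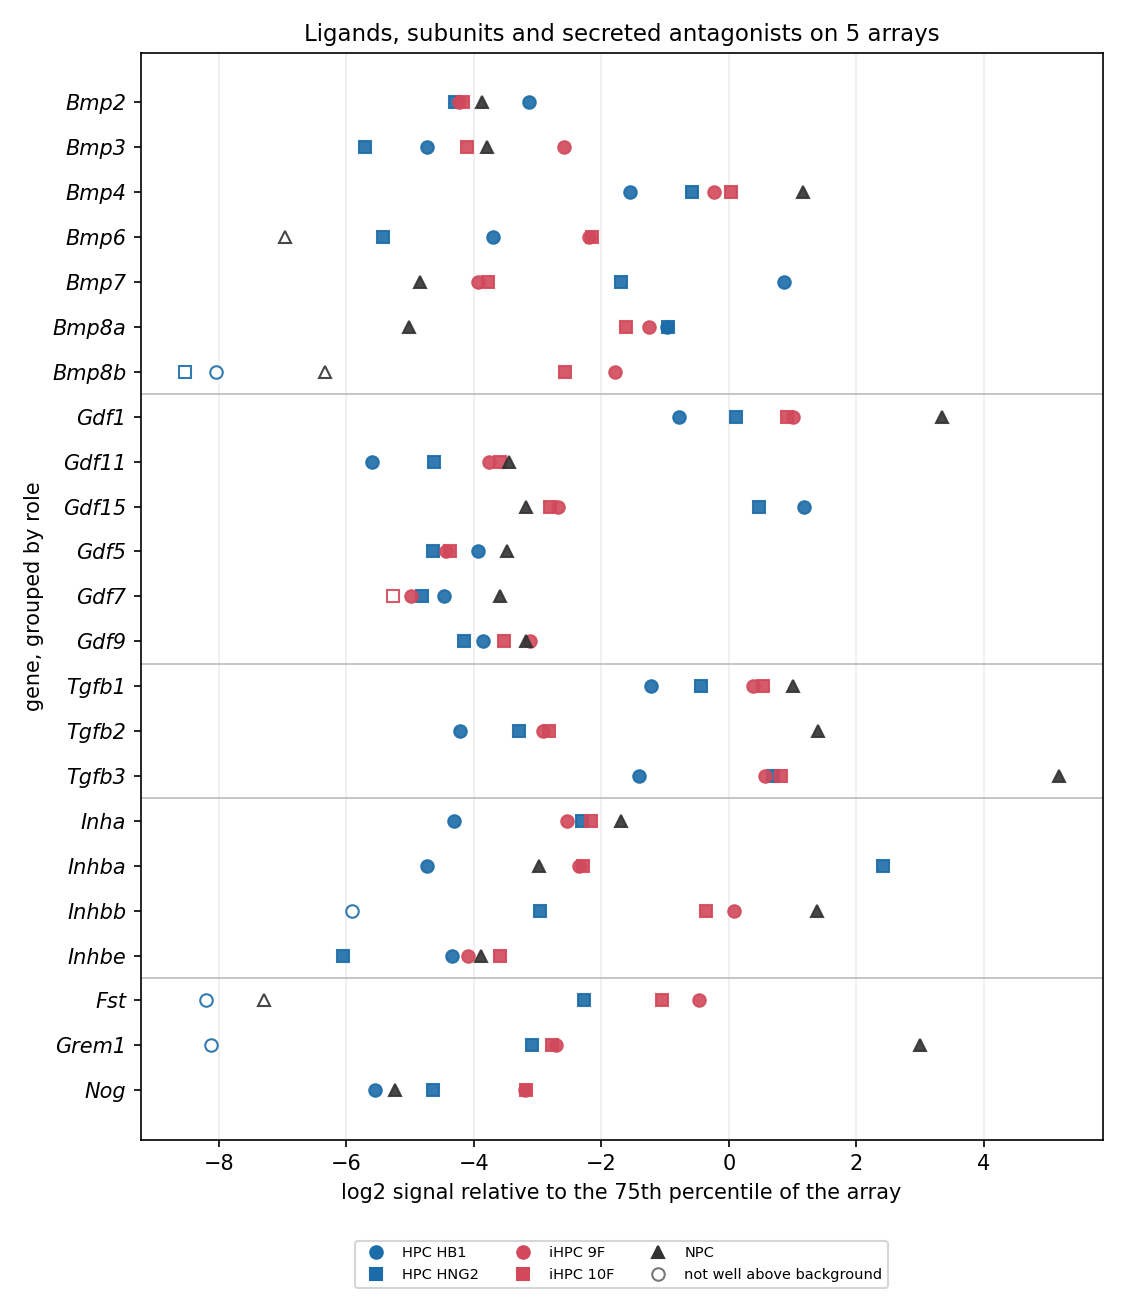
Level of every tested ligand, subunit and secreted antagonist on each of the 5 arrays, as log2 signal relative to the array's 75th percentile; open symbols are not well above background. For Bmp8b only the iHPC symbols are filled, for Gdf15 the HPC symbols stand alone on the right, and for Tgfb2 and Tgfb3 the NPC triangle does. Probes differ in brightness, so positions compare arrays within a gene and not genes with each other.

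Among the GDF ligands, Gdf15 marked HPC. Gdf15, a stress-induced secreted factor that acts through its own receptor in the hindbrain, read 1.18 on HB1 and 0.47 on HNG2, against -2.68 on 9F, -2.80 on 10F and -3.19 on NPC. iHPC thus stood near the NPC array and far below HPC. The difference was 11.8-fold between HPC and iHPC (log2 of iHPC minus HPC -3.56, SE 0.32, limma adjusted p = 0.0286) and 16.1-fold between HPC and NPC (4.01, SE 0.40, adjusted p = 0.0184), while iHPC minus NPC was 0.45 (SE 0.40, adjusted p = 0.573). Gdf1, a nodal-related ligand of left-right patterning, ran the other way, at -0.79 on HB1, 0.11 on HNG2, 1.00 on 9F, 0.91 on 10F and 3.35 on NPC. It was 12.9-fold lower in HPC than in NPC (log2 -3.69, SE 0.47, limma adjusted p = 0.0259), and iHPC minus NPC, at -2.39, did not pass (SE 0.47, adjusted p = 0.0839) except with normexp among the normalizations. Gdf1 shares a bicistronic transcript with Cers1, a ceramide synthase, and the probe may read both genes. Gdf5, Gdf7, Gdf9 and Gdf11 did not pass in any comparison, with differences from -1.66 to 1.42.

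All 3 TGF-beta ligands were highest on the NPC array. Tgfb2 read 1.39 on NPC, -2.92 on 9F, -2.81 on 10F, -4.22 on HB1 and -3.29 on HNG2. It fell 19.1-fold from NPC to iHPC (log2 -4.26, SE 0.48, limma adjusted p = 0.0374) and was 35.4-fold lower in HPC than in NPC (-5.14, SE 0.48, adjusted p = 0.0172), and on the shared slide 10F minus NPC was -4.21. Both iHPC arrays lay above both HPC arrays, by a mean of 0.89 that did not pass (SE 0.39, adjusted p = 0.25). Tgfb3 read 5.17 on NPC, 0.57 on 9F, 0.81 on 10F, -1.42 on HB1 and 0.69 on HNG2. HNG2 fell between the iHPC arrays and HB1 stood apart below them, so HPC and iHPC overlap. Tgfb3 was 46.3-fold lower in HPC than in NPC (log2 -5.53, SE 0.99, limma adjusted p = 0.046), and iHPC minus NPC, a 22.3-fold difference, did not pass (-4.48, SE 0.99, adjusted p = 0.104). Tgfb1, the main TGF-beta of fibrosis and immune tolerance, spanned a narrower range, from -1.22 on HB1 to 1.00 on NPC, and did not pass. The NPC array that was highest for these ligands was also the one with the mesenchymal summed signal of 206, with Lum alone of the 10 markers not above background there, and the part of mesenchymal expression in the result was not tested.

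For several activin subunits and secreted antagonists the HPC lines lay far apart. Inhba, which encodes the subunit of activin A, read 2.41 on HNG2 and -4.74 on HB1, with 9F, 10F and NPC between them at -2.35, -2.29 and -2.97. The HPC lines thus held both its highest and its lowest reading. On its brighter probe Inhbb, the subunit of activin B, read -2.97 on HNG2, 0.07 on 9F, -0.36 on 10F and 1.38 on NPC, and was not well above background on HB1. A second Inhbb probe was above background on HB1 (-5.10) and not on HNG2, so the probes disagree on the HPC lines. On both probes iHPC and NPC lay above the HPC lines, and no comparison passed (limma adjusted p = 0.0722 for HPC against NPC). The size for HPC rests partly on a reading under the limit and is uncertain. Of the 4 tested subunits, Inha, Inhba, Inhbb and Inhbe, limma called 0 in each comparison, and at an unadjusted p under 0.05 there were 0 for iHPC against NPC and 1 in each of the others.

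Fst, encoding the activin trap follistatin, was above background on both iHPC arrays (-0.48 on 9F and -1.06 on 10F) and on HNG2 (-2.28), and not on HB1 or NPC. It was at least 28.4-fold higher in iHPC than in NPC by the bound, but did not pass (limma adjusted p = 0.26). Its SE was 2.71, with HB1 and HNG2 5.93 apart. Grem1, the BMP antagonist gremlin, was highest on NPC at 3.0, read -3.08 on HNG2, -2.71 on 9F and -2.78 on 10F, and was not well above background on HB1. The 53.6-fold difference between iHPC and NPC likewise did not pass (log2 -5.74, SE 2.29, limma adjusted p = 0.246), though it did with normexp. Noggin, from Nog, read -3.20 on 9F and -3.19 on 10F against -5.55 on HB1, -4.64 on HNG2 and -5.24 on NPC. Both iHPC arrays were above the rest, by 2.05 over NPC (SE 0.47, limma adjusted p = 0.11) and 1.90 over HPC (SE 0.38, adjusted p = 0.0856). None of the 3 antagonists was called by limma in any comparison, where 1 of 3 had an unadjusted p under 0.05 in each.

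Most receptor genes were measured in all 3 cell types. Of the 11 type I and type II receptor genes, 9 were tested, and 8 were well above background on all arrays. Over those 8 the log2 differences ran from -1.22 to 1.61 for iHPC minus NPC, from -1.47 to 1.18 for iHPC minus HPC and from -1.32 to 1.21 for HPC minus NPC. The median size over the 15051 genes measured on all arrays was 0.46, 0.45 and 0.67 in these comparisons. Of the 8 receptors limma called 0, 0 and 1, and at an unadjusted p under 0.05 there were 5, 3 and 3. The tested receptor not measured on all arrays was Bmpr1b, a type I BMP receptor of cartilage and the nervous system. It read -3.98 on NPC and was not well above background on any HPC or iHPC array. NPC exceeded iHPC at least 2.73-fold (limma adjusted p = 0.0381) and HPC at least 5.01-fold (adjusted p = 0.0171). Both calls used the HPC and iHPC readings under the limit, and Bmpr1b entered the test only through NPC. The first of these calls was lost with normexp (adjusted p = 0.143) and with an intensity trend in the fit (0.0537). The other BMP type I receptor, Bmpr1a, read 0.86 to 0.96 on the HPC and iHPC arrays and 1.38 on NPC, without a call. Bmpr2, the type II BMP receptor, read 2.06 on HB1, 2.22 on HNG2, 2.26 on 9F, 2.38 on 10F and 3.46 on NPC. HPC and iHPC sat close together below NPC, and HPC minus NPC passed narrowly (log2 -1.32, SE 0.24, limma adjusted p = 0.0478), a call that was lost with median centring (adjusted p = 0.122) or the mean of all its probes (0.0787).

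Of the activin receptors, Acvr1b, the type I receptor of activin and nodal, read 2.25 on 9F and 2.17 on 10F against 0.96 to 1.22 on the other arrays. Acvr1, a type I BMP and activin receptor, was lowest in iHPC, at -0.95 and -0.72, against 0.39 to 0.85 elsewhere. Both iHPC arrays lay outside the range of the others in each case, in opposite directions, and neither gene passed against NPC or HPC (limma adjusted p of 0.0634 to 0.135). Acvr2b, a type II activin receptor, was likewise highest in iHPC, with iHPC minus NPC at 1.61 (SE 0.28, limma adjusted p = 0.0692). The TGF-beta receptors Tgfbr1 and Tgfbr2 did not pass in any comparison, and the co-receptor betaglycan, Tgfbr3, was above background on HNG2, 9F and NPC only.

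**Figure D3:**
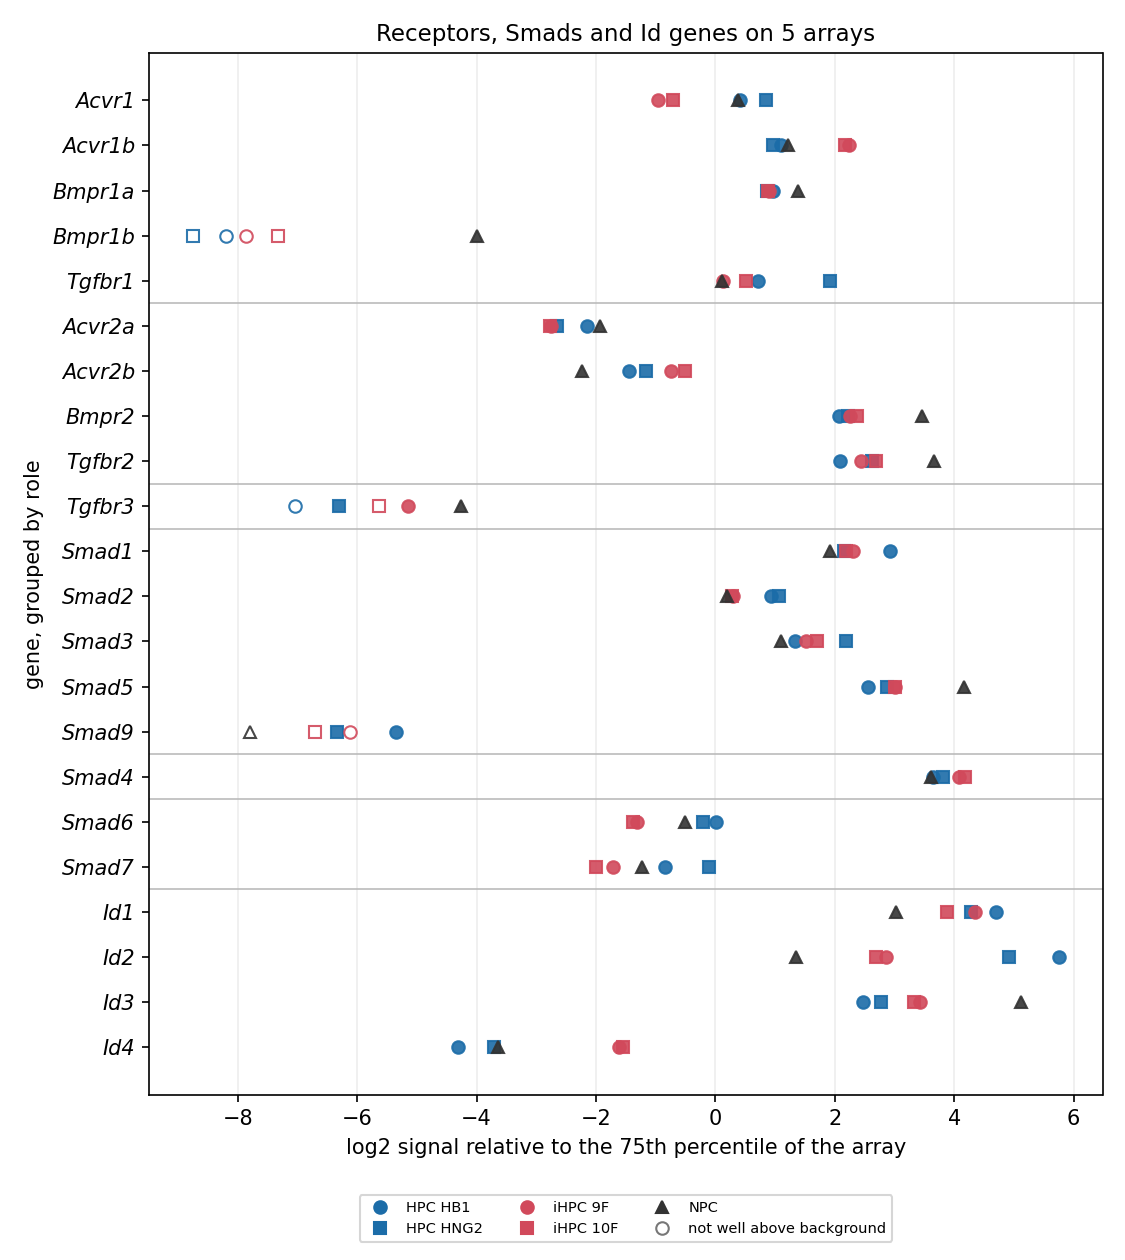
Level of every tested receptor, Smad and Id gene on each of the 5 arrays, as log2 signal relative to the array's 75th percentile; open symbols are not well above background. Most receptors and Smads keep their 5 symbols close together, Bmpr1b has a filled symbol for NPC only, and Id2 and Id3 order the cell types in opposite directions.

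Most Smad genes were also measured in all 3 cell types. Of 8 Smad genes, 7 were well above background on all arrays, and their differences ran from -1.16 to 0.51 for iHPC minus NPC, from -1.39 to 0.40 for iHPC minus HPC and from -1.46 to 0.80 for HPC minus NPC. Smad5, a BMP-branch Smad, was the only Smad called by limma, between HPC and NPC. It read 2.55 on HB1, 2.88 on HNG2, 3.01 on 9F, 3.02 on 10F and 4.17 on NPC (HPC minus NPC -1.46, SE 0.27, limma adjusted p = 0.0486, and 0.117 with median centring). For iHPC minus NPC it was -1.16 and did not pass (SE 0.27, limma adjusted p = 0.113). Its partner Smad1 spanned 1.93 to 2.93 and Smad4, the shared Smad, 3.62 to 4.18, without a call. A second Smad4 probe read 1.82 on HB1 and -0.54 on HNG2, where the probe used differed by 0.17. The inhibitory Smads were both lowest in iHPC. Smad6 read -1.31 on 9F and -1.38 on 10F against 0.01 on HB1, -0.20 on HNG2 and -0.52 on NPC, while Smad7 read -1.72 and -2.0 against -0.84, -0.11 and -1.22. The iHPC arrays did not overlap with the other groups for either gene, and iHPC minus HPC was -1.25 for Smad6 (SE 0.20, limma adjusted p = 0.0629) and -1.39 for Smad7 (SE 0.34, adjusted p = 0.114). Smad6 passed with quantile normalization, median centring, normexp or an intensity trend. Smad9, a BMP-branch Smad, was well above background on HB1 (-5.35) and HNG2 (-6.34) and not on iHPC or NPC, and it was not called (HPC minus NPC, limma adjusted p = 0.103). A second Smad9 probe was not well above background on any array, so its presence in HPC rests on 1 dim probe.

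The 4 Id genes, which encode dominant-negative partners of basic helix-loop-helix factors, fell into 3 orders of the group means. Id1 and Id2 ran down from HPC through iHPC to NPC, Id3 ran the opposite way, and Id4 was highest in iHPC. Id2 read 5.76 on HB1, 4.91 on HNG2, 2.86 on 9F, 2.69 on 10F and 1.35 on NPC. It was 15.9-fold higher in HPC than in NPC (log2 3.99, SE 0.45, limma adjusted p = 0.0221). iHPC lay between the others, without a call, at -2.56 for iHPC minus HPC (SE 0.37, adjusted p = 0.0539) and 1.42 for iHPC minus NPC (SE 0.45, adjusted p = 0.181). The difference from HPC passed under 6 alternatives that kept all arrays, with limma adjusted p from 0.025 to 0.0499. Id3 read 2.48 on HB1, 2.78 on HNG2, 3.44 on 9F, 3.33 on 10F and 5.12 on NPC. It was 5.62-fold lower in HPC than in NPC (log2 -2.49, SE 0.27, limma adjusted p = 0.0204), with iHPC minus NPC at -1.74 (SE 0.27, adjusted p = 0.0577). The latter passed with quantile normalization, normexp or an intensity trend.

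Id4, active in neural and germ line progenitors, read -1.61 on 9F and -1.54 on 10F, against -4.31 on HB1, -3.71 on HNG2 and -3.64 on NPC, so iHPC stood above both other groups. It was 5.39-fold higher in iHPC than in HPC (log2 2.43, SE 0.29, limma adjusted p = 0.0392), and 2.06 above NPC without passing (SE 0.35, adjusted p = 0.0677). The call against HPC was lost with quantile normalization (adjusted p = 0.0592) and with median centring (0.0557). A second Id4 probe was also highest in iHPC, at -3.71 on 9F and -3.94 on 10F against -5.74 on HNG2, and was not well above background on HB1 and NPC. Id1 spanned the narrowest range of the 4, at 4.70 on HB1, 4.28 on HNG2, 4.35 on 9F, 3.88 on 10F and 3.03 on NPC. NPC was its lowest array, and no comparison passed (iHPC minus NPC 1.08, SE 0.36, limma adjusted p = 0.195). The larger difference was HPC minus NPC, at 1.46 (SE 0.36), which passed with median centring, normexp or an intensity trend.

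The name rule also took in 3 genes that are not ligands, receptors or Smads. Bmp2k, a kinase named for its induction by BMP2, was called on its brightest probe, at -0.50 on HB1, -0.83 on HNG2, -2.57 on 9F, -2.68 on 10F and -3.11 on NPC (iHPC minus HPC -1.96, SE 0.22, limma adjusted p = 0.0377; HPC minus NPC 2.45, SE 0.27, adjusted p = 0.0217). Its other 3 probes gave 0.35, -0.83 and 0.25 for iHPC minus HPC, so the probes disagree. With the mean of all probes neither call remained (adjusted p = 0.293 and 0.313). Tgfb1i1, the focal adhesion protein Hic-5, ran from -5.21 on HB1 and -1.63 on HNG2 to 2.69 on NPC, and Bmp1, a procollagen-cleaving protease, from 1.83 on 9F to 3.73 on NPC. Neither passed.

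HB1 and HNG2, which share the label of hepatic progenitor, differed widely in several members. Among the 48 tested members, 8 lay more than 2 log2 units apart between these lines (16.7%), against 8.59% of all genes tested, and 7 of the 8 were higher in HNG2, where over all genes 760 were higher in HNG2 and 899 in HB1. With HNG2 minus HB1 as a log2 difference, these were Inhba (7.15), Fst (5.93), Grem1 (5.03), Tgfb1i1 (3.58), Inhbb (2.95), Tgfb3 (2.11) and Inha (2.01), and Bmp7 was lower (-2.55). HB1 was not well above background for Fst and Grem1, so the size of those differences is uncertain, and for Inhbb, whose second probe was above background on HB1 alone, the direction is too. Of the mesenchymal markers, 7 were above background on HNG2 and 3 on HB1, among them Pdgfrb at -0.74 on HNG2 and not on HB1. Their summed signal was 18.8 on HNG2 and 14.1 on HB1, most of it from Acta2, with Pdgfra, Postn and Lum not above background on either. Col1a1 and Col1a2, the remaining markers above background on both lines, were higher in HNG2 by 5.24 and 2.17 on the log2 scale. The part of mesenchymal expression in the result was not tested. The iHPC arrays, by contrast, differed by more than 2 units for 0 of the 48 members and for 0.73% of all genes. The largest gaps between 10F and 9F were -1.51 for Bmp3 and -0.78 for Bmp8b. Each side of these pairs is 1 array, so no test was possible.

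**Figure D4:**
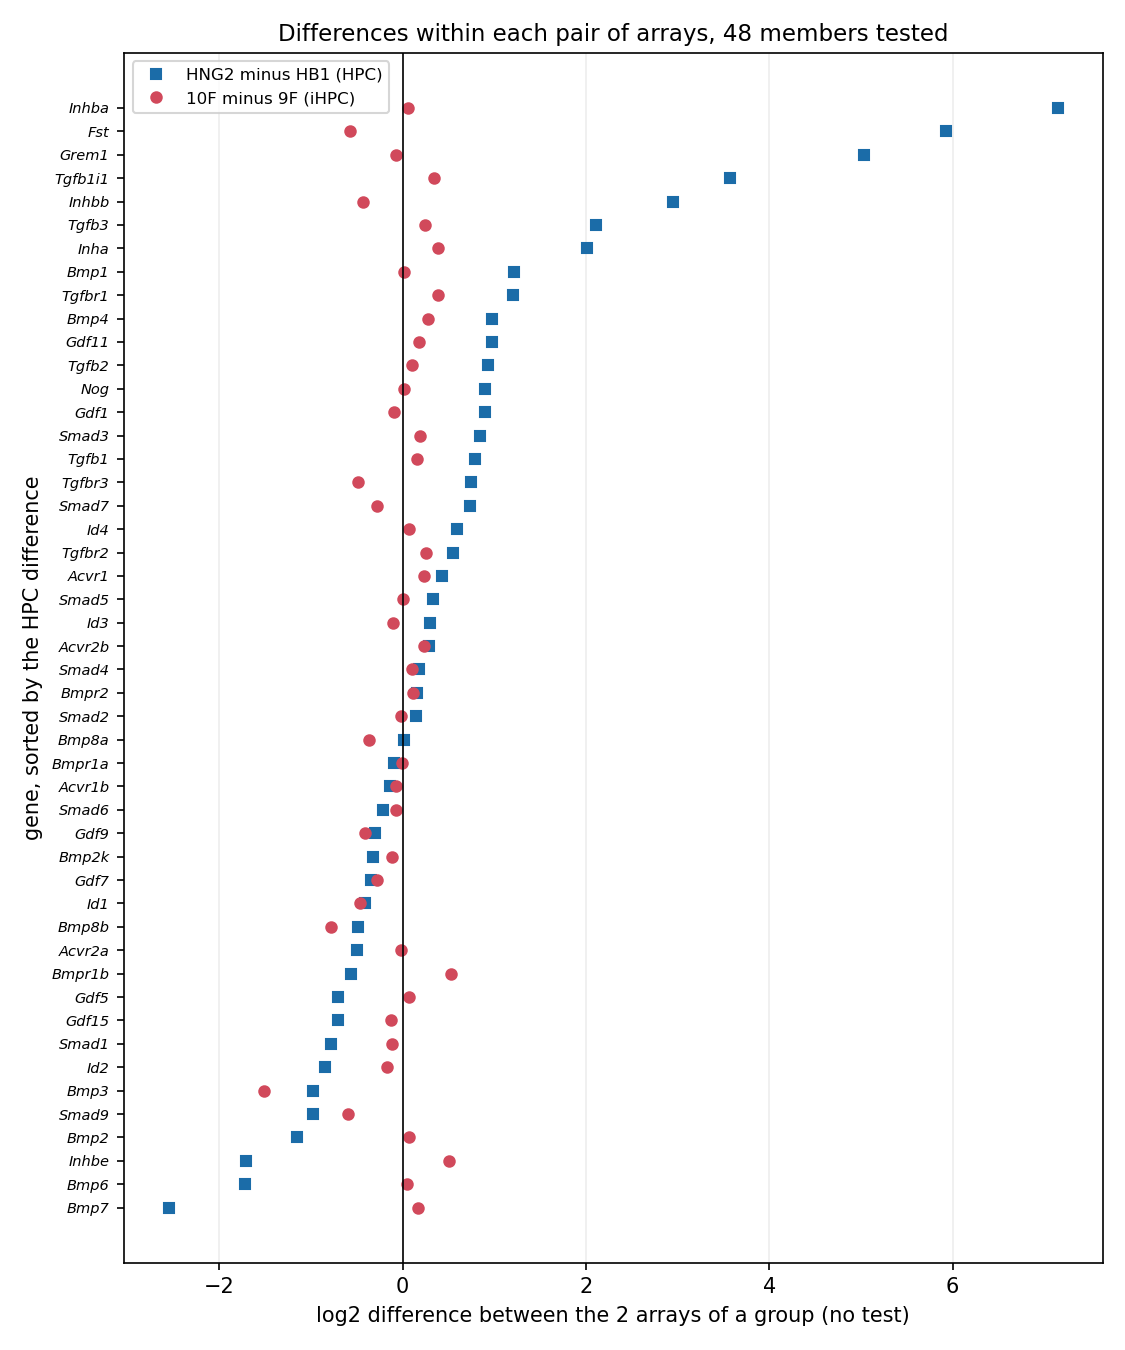
Log2 difference between the 2 arrays of a group for each of the 48 tested members, HNG2 minus HB1 as blue squares and 10F minus 9F as red circles, sorted by the former. The blue squares reach 7.15 for Inhba at the top and -2.55 for Bmp7 at the bottom, and the red circles stay between -1.51 and 0.53.

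Around the members, 86 further genes of these pathways were listed, of which 84 were on the array and 74 tested. Against NPC, iHPC had 1 of them higher and 7 lower, together 10.8% against 5.64% of all genes tested (2.79% higher and 2.85% lower). Crim1, a membrane protein that binds BMPs, rose by 2.40 (SE 0.23, limma adjusted p = 0.0316). The 7 that fell included genes of the matrix that stores latent TGF-beta, Fbn2 (log2 -6.46, limma adjusted p = 0.0459) and Emilin1 (at least 54.4-fold, adjusted p = 0.0284), the TGF-beta targets Tgfbi (-5.75, adjusted p = 0.0309) and Col1a2 (-7.60, adjusted p = 0.0471), the BMP antagonists Sostdc1 and Chrdl1, and the BMP co-receptor Rgmb (-2.24, adjusted p = 0.0377). Col1a2 is also in the mesenchymal marker list, whose summed signal was 206 on NPC and 14.0 and 14.3 on 9F and 10F, and the part of mesenchymal expression in these differences was not tested. Emilin1, Sostdc1 and Chrdl1 were above background on NPC only, so their calls used readings under the limit. They entered the test only through NPC, where they are high. Their calls, and the count of 7 and share of 10.8% that include them, are therefore not independent of that filter.

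Between iHPC and HPC 2 of the 74 were called (2.70%, against 5.42% of all genes). Tgfbi, a matrix protein induced by TGF-beta, read 0.76 on 9F and 1.05 on 10F against -3.51 on HB1 and -2.47 on HNG2, 3.90 higher in iHPC (SE 0.44, limma adjusted p = 0.037). Lefty1, a nodal inhibitor, read -0.98 and -1.10 against 1.30 and 0.76, and was lower in iHPC (-2.07, SE 0.27, adjusted p = 0.0474). Between HPC and NPC, 2 were higher in HPC and 10 lower, together 16.2% against 15.7% of all genes (6.68% higher and 8.98% lower), a share near the background. Ccn2, the connective tissue growth factor gene and a target of TGF-beta and of YAP, read 4.74 on HB1, 6.51 on HNG2, 3.91 on 9F, 3.92 on 10F and -1.35 on NPC. It was 6.97 higher in HPC than in NPC (SE 0.83, limma adjusted p = 0.0237), whereas Tgfbi, on the same target list, was lower in HPC than in NPC (-9.65, SE 0.54, adjusted p = 0.0112). These targets thus differed in opposite directions between the same arrays. Bambi, a decoy receptor, was lower in HPC (-3.10, SE 0.57, limma adjusted p = 0.0484).

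Inside the cell, limma called 0 of 18 regulators of Smad activity, such as the Smurf ligases and the Ski repressors, in each of the 3 comparisons. Over all genes tested, 5.64% were called for iHPC against NPC, 5.42% for iHPC against HPC and 15.7% for HPC against NPC. With only 18 genes, a count of 0 does not show that the regulators were unchanged. At an unadjusted p under 0.05 there were 3 regulators for iHPC against NPC, 3 for iHPC against HPC and 1 for HPC against NPC. The largest difference between iHPC and NPC was that of Pmepa1, a TGF-beta-induced inhibitor (-2.98, limma adjusted p = 0.419), which read 1.57 on HNG2 and -2.45 on HB1.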

How the data were processed

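RNA (0.25 µg per sample, per the labels) was read on 1-colour Agilent arrays. The deposited values are spot intensities, which Agilent Feature Extraction 10.7.3.1 corrected for background and spatial trends, per the file headers; no normalization between arrays is recorded. The deposited series matrix equalled this processed intensity on 100% of spots, so its scale is linear and not centred (column medians 41.5 to 69.3).

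From the deposited intensity, log2 was taken here and the array's 75th percentile (590.3 to 1074 signal units) subtracted. Control and outlier-marked spots were left out of the 45018 spots (43379 not controls), and spots of a probe were averaged. Of 41149 probes with a value on every array, 22940 were named through RefSeq accessions (GRCm38.p6), 6658 through the array's symbol found there, and 11551 keep the array's name. A probe was tested where some group had all its arrays well above background, and the brightest probe stood for its gene. Tests used limma 3.58.1 in R 4.3.3 (lmFit, eBayes, two-sided, 3 groups of 2, 2 and 1 arrays, 2 residual degrees of freedom, Benjamini-Hochberg adjustment). The procedure was tested on simulated data for iHPC against NPC only, with the same SD on all arrays of a gene. Those data did not cover the unequal spread of the HPC and iHPC pairs. The NPC array has no replicate and was assumed to vary like the pairs. The number of arrays limits precision. HB1, HNG2 and the other 3 arrays were scanned on 3 separate days, and 10F and NPC share a slide.

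Values on every array are given for members that were called, for the Id genes, and for members that differ by at least 4-fold within a role; the others are described by ranges or chosen values, of which those of the receptors Acvr1, Acvr1b and Acvr2b, of Smad6 and Smad7, and of the genes with the widest gaps within a pair were named after their values were seen. Of the other pathway genes, up to 4 called ones per list were named. The members and lists were chosen with earlier results of these data known. The submitters also mention arrays of embryonic stem cells and of another neural line, not analysed here. Figures were drawn with matplotlib 3.10.9.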

Additional observations from a re-analysis of the deposited data

Results flagged for a closer look

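iHPC and HPC can each be set against the same NPC array, and for 4 members the difference between those contrasts passed limma's test of iHPC minus HPC itself. These log2 differences were 6.12 for Bmp8b, 2.43 for Id4, -1.96 for Bmp2k and -3.56 for Gdf15. Bmp8b was not well above background in HPC or NPC, so its value is not a measured size, and the 4 probes of Bmp2k disagreed. HPC share no scan day with the other arrays.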

How the results depend on the processing

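No value of a called gene changed sign under any alternative run. The share of all genes called moved between alternatives too. For iHPC against NPC it was 5.64%, and 8.09% with quantile normalization, 3.26% on probes above background on all arrays and 1.06% without the filter. For iHPC against HPC it was 5.42%, and 10.6% with normexp, 7.72% with an intensity trend and 1.6% without the filter. For HPC against NPC it was 15.7%, and 24.2% with normexp. Leaving out HB1 or HNG2 raised it in each comparison. The number of tested members called was 4 for iHPC against NPC, and became 7 with quantile normalization, 1 without a filter on dim probes, 2 when all 5 arrays had to be well above background, 28 with only the groups compared or with scan day as a block, and 0 with 9F and 10F as separate groups (12 at an unadjusted p under 0.05). For iHPC against HPC it was 4, and became 10 with normexp, 2 without the filter, 8 with an intensity trend and 0 with 9F and 10F separate (12 unadjusted). For HPC against NPC it was 11, and became 19 with normexp, and 0 with only the groups compared or with 9F and 10F separate (17 unadjusted in each). Leaving out each array in turn gave 0 to 28, 0 to 27 and 0 to 33 members called; at 0, an iHPC array was left out, and 5 to 17 members had an unadjusted p under 0.05. With the background share at 35% where only iHPC and NPC were fitted, the 28 members called are 58.3%. Of the other pathway genes, 8 were called for iHPC against NPC, and 1 without the filter, 4 on probes above background on all arrays, 41 with only the groups compared or with scan day as a block, and 0 with 9F and 10F separate (16 unadjusted). For iHPC against HPC 2 were called, and 4 with quantile normalization, 5 with median centring, with the mean of all probes or with a trend, 7 with normexp, and 0 without the filter (19 unadjusted) or with 9F and 10F separate (8 unadjusted). For HPC against NPC 12 were called, and 19 with normexp and 0 with only the groups compared or with 9F and 10F separate (16 unadjusted in each). Leaving out each array gave 0 to 41, 0 to 34 and 0 to 45. iHPC and NPC share a scan day, so the fit with scan day as a block adjusts nothing between them and repeats that of only iHPC and NPC. In both, the iHPC pair alone gave the spread. The HPC pair alone gave it with 9F and 10F separate, with only HPC and NPC compared, or with an iHPC array left out. Apart from this measure of spread and the fewer arrays or genes that an alternative holds, the cause was not tested. Median centring moved the median of all genes to -0.19 for iHPC minus HPC and 0.26 for HPC minus NPC, and normexp to 0.18 and -0.20, against 0.05 and -0.03. Scan day could not be fitted as a block where HPC are compared. No paired analysis was possible because the labels give no replicate numbers shared between groups. Dim probes give at most bounds, so Bmp6, Bmp8b, Bmpr1b, Fst and Smad9 have no measured size in some groups. Fst, Grem1 and Inhbb were under the limit on HB1 and above it on HNG2, so their size in HPC is uncertain.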
